A study of Mus musculus with 36 samples.

Results

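The 9 genes described here mark cells of the embryonic cortex that lie outside the Emx1 lineage, namely cortical interneurons and the ventral forebrain that produces them. They were chosen by gene name from a deposited count table and are 9 of its 55487 genes: Gsx2, Dlx1, Dlx2, Dlx5, Lhx6, Gad1, Gad2, Erbb4 and Sst. The table comes from polysome profiling of the cortex of female mouse embryos at E14.5, in which RNA of a cleared lysate (input) was sequenced beside RNA from the single-ribosome peak (monosome) and the multiple-ribosome part (polysome) of a sucrose gradient. Cortices of 2 embryos of like genotype were pooled for each sample. The 36 libraries formed 12 groups of 3, from 2 crosses, 2 genotypes and 3 fractions.

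In the LoF cross, conditional heterozygotes (LoF cHet) were Emx1-Cre/+;Ddx3x lox/+ and their controls were Ddx3x lox/+ without Cre. In the T532M cross, the conditional heterozygotes (T532M cHet) were Emx1-Cre/+;Ddx3x-T532M lox/+ and their controls were Emx1-Cre/+. All embryos were female, so a cHet kept a second Ddx3x allele, and Cre was present in both genotypes of the T532M cross but only in the cHet of the LoF cross. Emx1-Cre acts in progenitors of the dorsal telencephalon and in the neurons and glia they form, so the cells that express the 9 genes are, for the most part, not cells in which Ddx3x was recombined. The libraries of 1 genotype and number are taken as 1 pool, since the input was drawn from the lysate that was then loaded, although the labels do not state that the numbers match across fractions.

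Cortical interneurons arise in the ganglionic eminences of the ventral telencephalon and migrate tangentially into the cortex, where they release the inhibitory transmitter GABA. Gsx2 acts in ventral progenitors, the Dlx homeobox factors act in progenitors and newborn GABAergic neurons downstream of it, and Lhx6 acts in interneurons from the medial eminence downstream of Nkx2-1. Gad1 and Gad2 encode the decarboxylases that make GABA, Erbb4 encodes a neuregulin receptor used by migrating interneurons, and Sst encodes the neuropeptide somatostatin of 1 interneuron class. DDX3X is an RNA helicase that takes part in translation initiation on structured mRNAs.

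Promoter windows of 3 genes are shown because Sst behaved unlike the other genes in the monosome, while Dlx2 and Gad2 stand for the homeobox factors and the enzymes that varied together between pools. Each window is the 250 bases before the start of the gene in RefSeq on GRCm38.p6, written 5′ to 3′ on the strand of the gene. Capitals mark the cAMP response element palindrome TGACGTCA in Sst, and the CCAAT box in Gad2 and, as its reverse complement ATTGG, in Dlx2.
Sst (chr16:23890845-23891094, minus strand): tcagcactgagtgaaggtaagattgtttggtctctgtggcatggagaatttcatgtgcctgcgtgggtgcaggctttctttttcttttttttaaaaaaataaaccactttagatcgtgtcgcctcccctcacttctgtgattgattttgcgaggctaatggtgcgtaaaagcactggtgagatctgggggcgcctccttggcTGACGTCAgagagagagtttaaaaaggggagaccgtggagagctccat
Dlx2 (chr2:71546755-71547004, minus strand): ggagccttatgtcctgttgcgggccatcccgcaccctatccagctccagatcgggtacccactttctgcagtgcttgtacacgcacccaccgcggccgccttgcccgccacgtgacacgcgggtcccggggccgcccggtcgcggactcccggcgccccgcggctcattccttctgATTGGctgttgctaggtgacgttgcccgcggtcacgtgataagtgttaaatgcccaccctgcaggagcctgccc
Gad2 (chr2:22622077-22622326, plus strand): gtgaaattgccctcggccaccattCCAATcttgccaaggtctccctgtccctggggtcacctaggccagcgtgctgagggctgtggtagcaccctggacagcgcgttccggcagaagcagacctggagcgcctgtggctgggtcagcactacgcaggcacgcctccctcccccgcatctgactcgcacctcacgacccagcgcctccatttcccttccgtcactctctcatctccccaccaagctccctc
Windows were found for 8 of the 9 genes, and Dlx5 is only named. The palindrome lay at position -48 from the start of Sst, in 1.55% of all 32851 RefSeq windows of this length, and among the 8 genes only in Sst. The CCAAT box, searched on both strands, lay at position -74 from the start of Dlx2 and -226 from that of Gad2, and occurred in 33.8% of all windows. It also lay at position -193 from a start of Lhx6 and -96 from another. The homeodomain core TAATTA was in none of the windows of the 8 genes and in 4.84% of all windows. These matches describe letters in a window and are not shown to be bound.

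In the deposited annotation on GRCm38, the genes lie at chr5:75075601-75077893 (Gsx2, plus strand), chr2:71528113-71533981 (Dlx1, plus), chr2:71543408-71546754 (Dlx2, minus), chr6:6877805-6882085 (Dlx5, minus) and chr2:36081953-36105408 (Lhx6, minus). Gad1 lies at chr2:70553072-70602014 (plus), Gad2 at chr2:22622205-22693874 (plus), Sst at chr16:23889573-23890958 (minus) and Erbb4 at chr1:68032186-69108059 (minus), a span of 1075874 bp. Read pairs were counted over the whole gene, introns included, and by strand. The antisense genes Dlx1as and Gad1os, which overlap Dlx1 and Gad1, were therefore counted apart from them.

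Libraries held 44214830 to 57935512 counted read pairs in the polysome, 36999365 to 49049947 in the monosome and 38059093 to 46271375 in input. Of these, 8245 to 17615 pairs fell on the 9 genes in a polysome library, 9708 to 20646 in a monosome library and 10075 to 21236 in an input library, and every gene was detected in every library. Mitochondrial RNA, which cytosolic ribosomes do not read, took 3.82 to 10.2% of the pairs in the monosome, 1.72 to 3.62% in input and at most 0.0524% in the polysome. RNA in the monosome therefore need not be on a cytosolic ribosome, and what held the mitochondrial RNA there was not tested. Emx1, the marker of the recombined lineage, was at 62.7 to 88.3 CPM (read counts scaled to a common library size with TMM factors) in input. Ddx3x in the polysome was at 2218, 1697 and 1771 CPM in LoF cHet against 2481, 2060.5 and 2569 CPM in LoF controls, and at 4158, 6005 and 5406 CPM in T532M cHet against 3124, 3566 and 2343 CPM in T532M controls. Ttr, a choroid plexus marker, was at 38.5 CPM in the input of LoF cHet pool 1, 157 CPM in LoF control pool 1, 179.6 CPM in LoF control pool 3 and 181 CPM in T532M cHet pool 1, and at 0 to 2.28 CPM in the other 8 pools. The part of such tissue in the results was not tested.

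The genes differed widely in the fraction that held their RNA, with log2 fold changes of polysome over input from -2.88 to 5.80 in controls, beside -1.14 to 0.77 for cHet over control within a fraction. In controls of both crosses, Erbb4 and Gad2 were higher in the polysome than in input, the homeobox genes Dlx1, Dlx2, Dlx5 and Lhx6 were lower there, and Sst was the lowest of the 9 in this ratio. In bulk cortex a smaller number of interneurons and less RNA per interneuron cannot be told apart, but a ratio between fractions of the same pools compares RNA of the same cells. All fold changes and p-values are from the edgeR quasi-likelihood test on counts with Benjamini-Hochberg adjustment over all genes tested, called at an adjusted p under 0.05.

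In the order of the 12 group means, the 4 polysome groups of Erbb4 (95.4 to 119.9 CPM) came first, then its 4 monosome groups (19.7 to 25.3 CPM) and its 4 input groups (1.47 to 3.26 CPM). Sst ran in the opposite order, with 4 input groups (17.7 to 26.4 CPM) before 4 monosome groups (5.90 to 10.3 CPM) and 4 polysome groups (2.59 to 3.42 CPM). Gad2 followed the order of Erbb4 and Dlx5 that of Sst, while Gad1 was highest in the monosome of LoF controls (31.8 ± 7.97 CPM) and Gsx2 lowest there or in the monosome of the other groups (2.27 to 2.49 CPM). Within a fraction, groups next to each other in these orders differed by less than the larger of their SDs, except LoF cHet and T532M controls in the input of Erbb4 (1.47 ± 0.399 and 1.95 ± 0.0646 CPM) and of Gad2 (17.9 ± 1.80 and 21.5 ± 2.95 CPM).

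**Figure D1:**
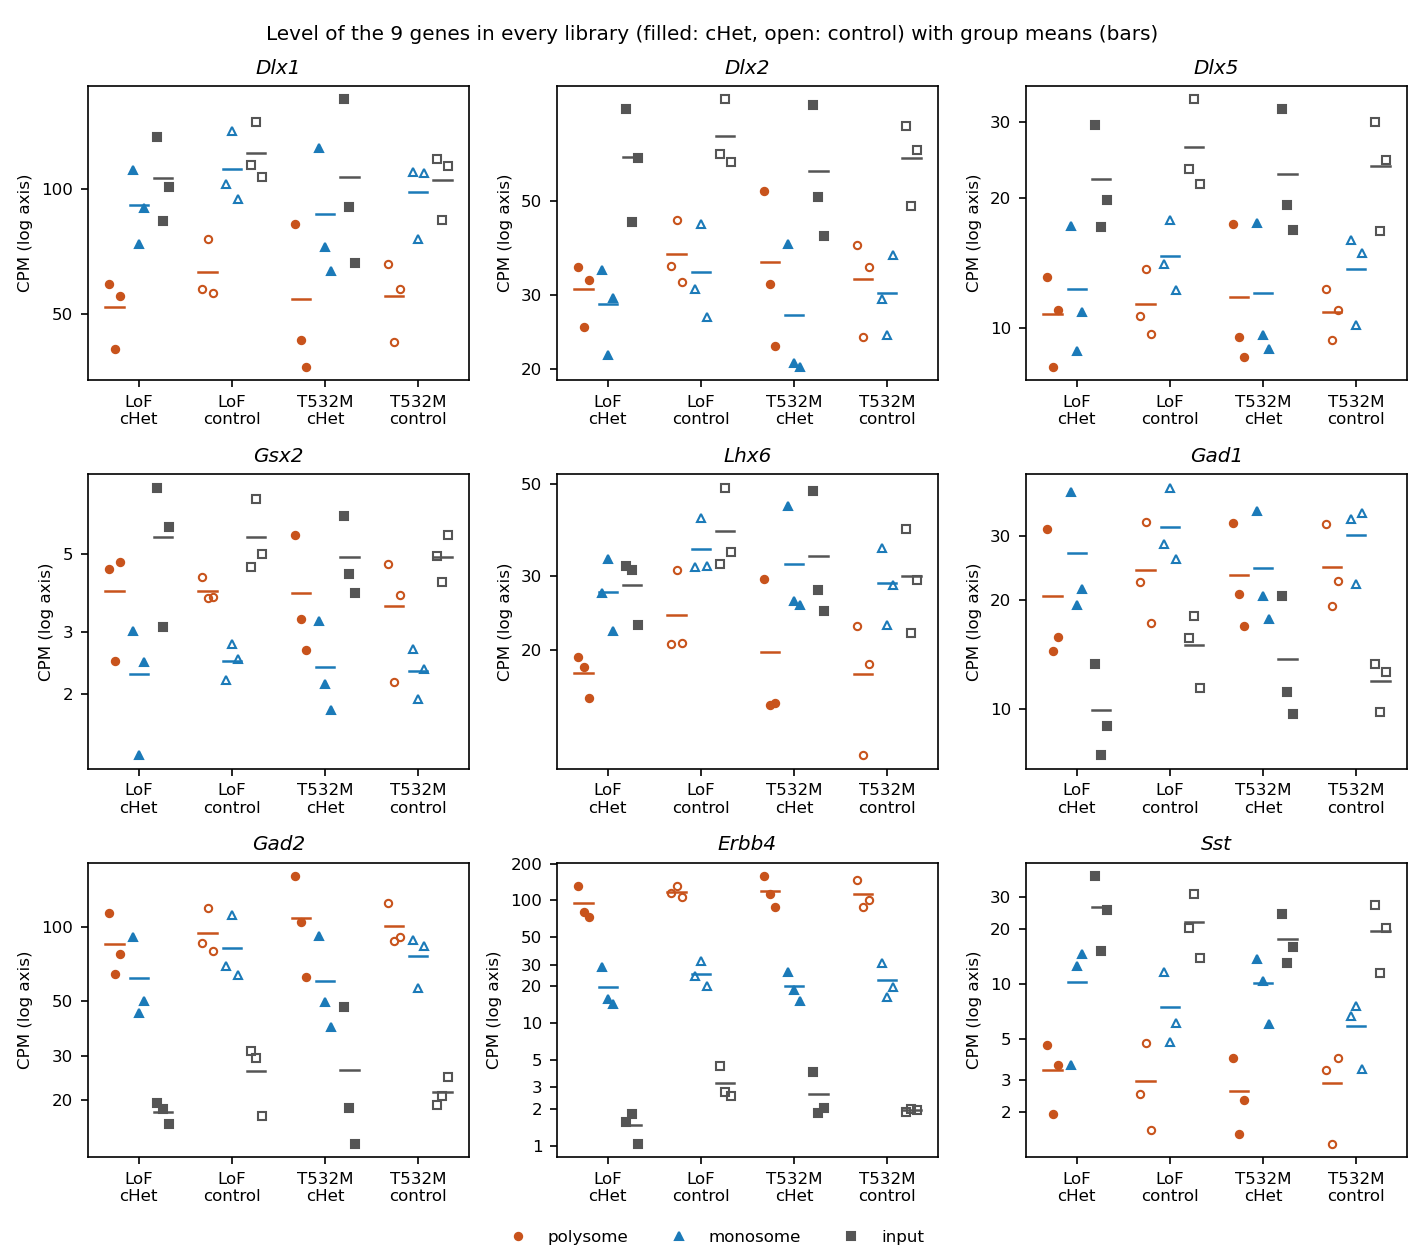
Level of each of the 9 genes in every library, in CPM on a log axis. Points are libraries (filled for cHet, open for control), bars are means of 3, and the polysome, monosome and input of a group stand side by side. Erbb4 sits at 73.8 to 158 CPM in the polysome and 1.04 to 4.47 CPM in input, and Sst runs the other way, at 1.342 to 4.75 CPM and 11.5 to 38.8 CPM.

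In polysome against input of LoF controls 7 of the 9 genes passed, 2 higher and 5 lower, and in T532M controls 8 passed, 3 higher and 5 lower. Among all genes tested 79.3% passed in the LoF controls (36.5% higher, 42.8% lower) and 79% in the T532M controls (36.6% higher, 42.4% lower), so a call in itself is near the background and only the sizes tell the genes apart.

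Among the transcription factors, Dlx1 in LoF controls was at 57.5, 75.9 and 56.1 CPM in the polysome and at 115, 145 and 107 CPM in input. Its polysome libraries were all below its input libraries, and the log2 value of polysome over input was -0.96 ± 0.201 (SE; adjusted p = 0.000239), and -0.97 ± 0.337 (adjusted p = 0.0137) in T532M controls. Dlx2 fell by 0.93 on the log2 scale in LoF controls and fell by 1.00 in T532M controls. Dlx5 had log2 fold changes of -1.21 in LoF controls and -1.17 in T532M controls and passed in both. Lhx6 fell less, by 0.67 in LoF controls (adjusted p = 0.00415) and 0.83 in T532M controls (adjusted p = 0.0304). In T532M controls the calls of Dlx1 and Lhx6 did not hold without 1 of the control pools, with adjusted p of 0.0505 without pool 1 and 0.0736 without pool 3 for Dlx1, and of 0.0632 to 0.0906 without any 1 of the 3 pools for Lhx6. In LoF controls, Lhx6 libraries of the polysome lay below those of input, and in T532M controls they overlapped. Gsx2, the progenitor factor, had a log2 fold change of -0.51 in both crosses and passed in neither (adjusted p = 0.134 in LoF controls and 0.14 in T532M controls). With the pool as a replicate block, all 9 genes passed in polysome against input in both crosses, Gsx2 lower in both and Gad1 higher in LoF controls being the additions.

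The 2 enzymes of GABA synthesis ran the other way, and by different amounts. Gad2 in LoF controls was at 85.7, 119 and 79.5 CPM in the polysome against 31.6, 29.6 and 17.2 CPM in input, and in T532M controls at 125, 87.3 and 90.6 CPM against 19.1, 20.7 and 24.8 CPM. The groups did not overlap in either cross, and Gad2 rose by 1.85 ± 0.291 (SE) in LoF controls and 2.19 ± 0.417 in T532M controls on the log2 scale (adjusted p = 9.21e-06 and 0.000105). Gad1 had log2 fold changes of 0.68 in LoF controls (adjusted p = 0.064) and 1.01 in T532M controls (adjusted p = 0.0077), of which the second was lost without T532M control pool 1 (adjusted p = 0.0517).

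Erbb4 in LoF controls was at 116, 131 and 106 CPM in the polysome, 24.2, 31.8 and 20.0 CPM in the monosome, and 4.47, 2.72 and 2.57 CPM in input. In T532M controls it was at 147, 88.6 and 101.4 CPM in the polysome, 31.1, 16.5 and 19.7 CPM in the monosome, and 1.88, 2.01 and 1.97 CPM in input. The 3 fractions were apart without overlap in both crosses. Polysome over input was 5.17 ± 0.323 on the log2 scale in LoF controls (adjusted p = 1.97e-11) and 5.80 ± 0.36 in T532M controls (adjusted p = 3.9e-11), above the ratio of 99.3% and 99.4% of all genes tested. The input count behind it is small, at 48 to 241 read pairs in a library, against 2575 to 5055 in a polysome library.

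Sst in LoF controls was at 2.52, 4.75 and 1.60 CPM in the polysome and at 20.3, 31.1 and 13.9 CPM in input, and in T532M controls at 3.39, 1.342 and 3.97 CPM against 27.1, 11.5 and 20.2 CPM. The polysome libraries were all below the input libraries. The log2 fold change was -2.88 ± 0.521 in LoF controls (adjusted p = 4.9e-05) and -2.80 ± 0.447 in T532M controls (adjusted p = 1.43e-05), and 7.66% and 8.84% of the genes tested had a lower one.

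The order of the 9 genes by polysome over input broadly followed the length of their coding sequence. Sst has the shortest at 348 nt, followed by Dlx1 (765 nt), Dlx5 (867 nt), Gsx2 (915 nt), Dlx2 (996 nt), Lhx6 (1176 nt), Gad2 (1755 nt), Gad1 (1779 nt) and Erbb4 (3924 nt). Across these genes the Spearman correlation of coding length with the log2 fold change was 0.92 in LoF controls and 0.87 in T532M controls, beside 0.77 over 14533 genes and 0.76 over 14359 genes with a coding length. Genes are not independent replicates, and the points of a cross share its 6 control libraries. Classes of all genes ran from a median of -2.21 in LoF controls and -2.29 in T532M controls for coding sequences under 600 nt to 2.31 and 2.50 for those of 3000 nt and over. Against the class of its own length, Erbb4 was therefore higher by more than 2 log2 units in each cross.

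**Figure D2:**
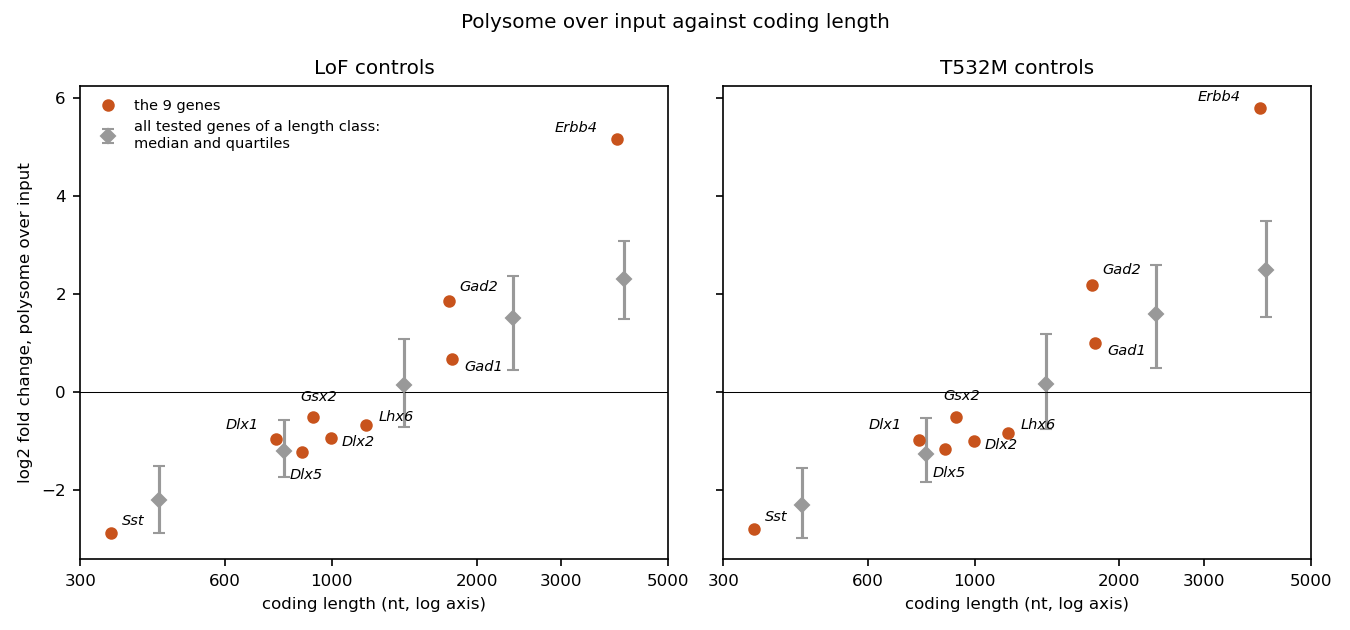
Log2 fold change of polysome over input in controls against coding length in nt (log axis), for LoF controls on the left and T532M controls on the right. Round points are the 9 genes, and diamonds with bars are medians and quartiles of all tested genes in 5 length classes. Erbb4, at 5.17 and 5.80, sits above the quartiles of its class, and Sst, at -2.88 and -2.80, at the low end.

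In monosome against input each gene had the same sign as in polysome against input, with other sizes. Across the 9 genes the Spearman correlation with coding length was 0.77 in LoF controls and 0.83 in T532M controls, given as a description. Over all genes with a coding length it was 0.20 and 0.25. In both crosses 7 of 9 passed, 3 higher and 4 lower, beside 62.7% of genes tested in LoF controls (32.2% higher, 30.6% lower) and 63.1% in T532M controls (32.1% higher, 31% lower). Gad1 rose by 1.08 in LoF controls and 1.30 in T532M controls on the log2 scale, Gad2 by 1.65 and 1.79, and Erbb4 by 2.96 and 3.48. The lower ones were Dlx2 (log2 fold change -1.07 in LoF controls and -1.10 in T532M controls), Dlx5 (-0.83 and -0.84), Gsx2 (-1.17 and -1.13) and Sst (-1.52 and -1.78). Dlx1 (-0.13 and -0.14) and Lhx6 (-0.14 and -0.10) passed in neither cross. Some calls were lost with fewer libraries. Sst in LoF controls was at -0.94 without control pool 2 (adjusted p = 0.144). In T532M controls Dlx2 was at -0.93 without control pool 1 (0.0713), and Dlx5 at -0.75 without control pool 1 (0.115) and -0.88 without control pool 3 (0.0883), close to their values with all pools.

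Dlx1 and Dlx2, neighbours on chromosome 2 with like values in polysome against input, had unlike values in polysome against monosome, a difference between genes that was not tested. In LoF controls, 4 genes passed, with Erbb4 higher (2.21 ± 0.277, adjusted p = 4.93e-07) and Dlx1 (-0.83 ± 0.201, adjusted p = 0.000894), Lhx6 (-0.54 ± 0.196, adjusted p = 0.0172) and Sst (-1.36 ± 0.514, adjusted p = 0.0211) lower, against 81.2% of all genes tested (36.4% higher, 44.9% lower). In T532M controls, 3 passed, with Erbb4 higher (2.32) and Dlx1 (-0.83) and Sst (-1.02) lower, against 79.9% of all genes tested (36% higher, 43.9% lower). Dlx2 had values of 0.13 and 0.11 in LoF and T532M controls. With the pool as a replicate block, 7 genes passed in LoF controls and 8 in T532M controls, since Dlx5, Gsx2 and Gad1 then also passed in both crosses and Lhx6 and Gad2 in T532M controls. Without single control pools the calls of Sst and Lhx6 in LoF controls (adjusted p = 0.26 and 0.0667 without pool 1, 0.0845 and 0.0814 without pool 3) were lost. Those of Sst and Dlx1 in T532M controls were lost too (0.102 and 0.0812 without pool 1, 0.345 and 0.0724 without pool 2), and Dlx1 also without pool 3 (0.131).

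The LoF genotype was compared in each fraction to ask whether interneuron RNA differed when Ddx3x was altered in the surrounding lineage. In input none of the 9 genes passed with edgeR or with DESeq2, and 2 had an unadjusted p under 0.05. Among all 18556 genes, 0% passed with edgeR, while 1996 had an edgeR p under 0.05 before adjustment. DESeq2 called 81 of 15099 genes. By the sign of the fold change 7 of 9 genes were lower in LoF cHet input, with a median of -0.24 beside -0.01 over all genes tested.

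Erbb4 in input was at 1.56, 1.82 and 1.04 CPM in LoF cHet against 4.47, 2.72 and 2.57 CPM in LoF controls. All 3 cHet libraries were below all 3 control libraries, which was so for 6.21% of genes tested. The means were 1.47 ± 0.399 CPM in LoF cHet and 3.26 ± 1.06 CPM in LoF controls (SD, n = 3 each), and the log2 fold change of -1.14 ± 0.329 (SE) did not pass (edgeR adjusted p = 0.266). In the authors' deposited table for the LoF cross, Erbb4 was the only one of the 9 genes called in input, with a log2 fold change of -1.12 and an adjusted p of 0.0445, among 0.562% of 12450 genes. Over 12 other settings the value stayed between -1.31 and -0.84 and the edgeR or DESeq2 adjusted p between 1.24e-06 and 1, where the lowest came without the filter on low counts (967 of 31690 genes called) and the highest without LoF control pool 1.

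In the other fractions of the same pools, Erbb4 was at 132, 80.5 and 73.8 CPM in the polysome of LoF cHet against 116, 131 and 106 CPM in LoF controls, and at 28.9, 15.9 and 14.2 CPM against 24.2, 31.8 and 20.0 CPM in the monosome. The groups overlapped in the polysome and in the monosome, with log2 fold changes of -0.30 in the polysome and -0.37 in the monosome. The genotype effect in the polysome minus that in input was 0.84 ± 0.421 (edgeR adjusted p = 0.747; 0.0108% of genes passed). Among the 12 pools, the log2 ratio of polysome to input of Erbb4 was highest in LoF cHet pool 1 (5.70). It was lowest in LoF control pool 1 (4.41). The median log2 ratio of 1700 genes with coding sequences of 3000 nt and over was 2.61 and 2.32 in these pools. Erbb4 was at 1.04 to 4.47 CPM in input, where the 1 CPM added before the log narrows the spread of its log2 ratio. LoF cHet pool 3 and LoF control pool 2 had high log2 ratios of Erbb4 (5.199 and 5.15) beside low medians of the 1700 genes (2.13 and 2.15). Over the 12 pools, whose points share libraries, r was 0.49 and rho 0.43, given as a description. In LoF input such genes had a median log2 fold change of -0.09 and 61.4% were lower by sign, beside 0.05 and 36.8% for coding sequences under 600 nt. The part of this difference by length in the value of Erbb4 was not tested.

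Lhx6 in input was at 31.8, 31.03 and 22.96 CPM in LoF cHet against 32.1, 48.8 and 34.3 CPM in LoF controls. In the polysome it was at 19.3, 18.2 and 15.4 CPM against 20.7, 31.2 and 20.8 CPM. In both fractions the cHet libraries lay below the control libraries, but the highest cHet library came close to the lowest control library. The log2 fold changes were -0.42 ± 0.194 (adjusted p = 0.433) in input and -0.46 ± 0.199 (adjusted p = 1) in the polysome, where 2.66% of genes had all cHet libraries lower. In the monosome the groups overlapped, with a log2 fold change of -0.35.

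Gad1 in input was at 13.3, 7.44 and 8.96 CPM in LoF cHet against 15.7, 18.04 and 11.4 CPM in LoF controls (log2 fold change -0.60 ± 0.328, adjusted p = 0.572). Gad2 was at 19.5, 18.3 and 15.9 CPM in LoF cHet against 31.6, 29.6 and 17.2 CPM in LoF controls (-0.54 ± 0.286, adjusted p = 0.55). In both genes 1 control library lay within the range of the cHet libraries. The homeobox genes Dlx1 (-0.20), Dlx2 (-0.16) and Dlx5 (-0.24) and the progenitor factor Gsx2 (0.01) differed by less than their SE or about as much, and Sst (0.28 ± 0.458) was on the higher side.

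In the LoF monosome 8 of 9 genes were lower by sign (median -0.26; Sst at 0.44) and in the polysome 7 of 9 (median -0.23). None passed with edgeR or DESeq2 in either fraction, with 0 genes at an unadjusted p under 0.05 in the monosome and 1, Lhx6, in the polysome. Among all genes 0.0108% passed in the monosome and 0% in the polysome, where DESeq2 called 0 genes and 600 had an edgeR p under 0.05 before adjustment. Removing the 3 LoF pools with most Ttr was an alternative chosen after seeing the data. It left LoF control pool 2 as the only control, which is also the control pool with the highest levels of the 9 genes. It also took out LoF cHet pool 1, the LoF cHet pool with the highest summed level of the 9 genes. That sum was 358 CPM in input, against 222 and 264 CPM in LoF cHet pools 2 and 3. The spread of that lone control is taken from the other groups in the fit. Against it, Gad1 (-1.13) and Gad2 (-0.78) passed in input, where 62 of 18970 genes did, and Gad1 (-1.13) and Gad2 (-0.76) in the polysome, where 70 did. In the monosome Dlx1, Dlx2, Dlx5, Gad1, Gad2 and Erbb4 passed lower and Sst higher (1.497), beside 940 of 18970 genes called in that setting.

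**Figure D3:**
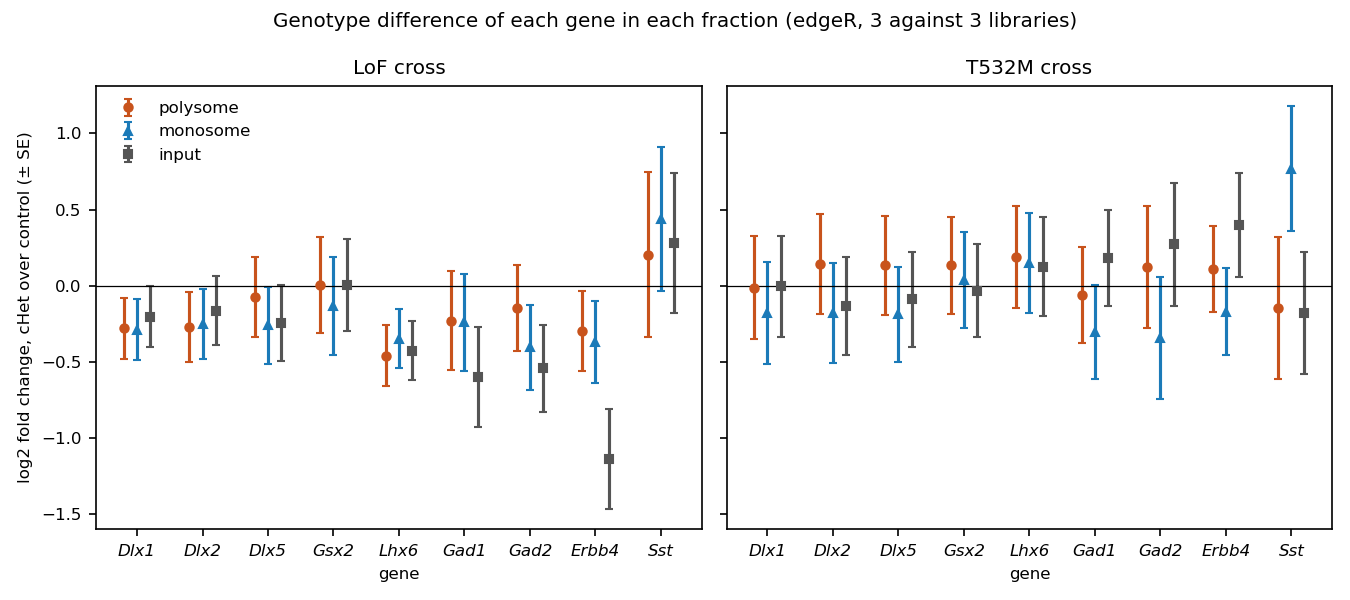
Log2 fold change of cHet over control (points) with its SE (bars) for each gene, with the polysome, monosome and input side by side, in the LoF cross on the left and the T532M cross on the right. In the LoF cross most values lie below 0, with Erbb4 in input the lowest at -1.14, and in the T532M cross they lie on both sides of 0, with Sst in the monosome the highest at 0.77.

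In the T532M cross none of the 9 genes passed in any fraction with edgeR or DESeq2, and none had an unadjusted p under 0.05. In input 4 were higher and 5 lower by sign, from -0.18 (Sst) to 0.40 (Erbb4), with a median of -0.00. Of all genes 0.00548% passed there with edgeR, and 123 of 15605 with DESeq2. In the monosome the range was -0.34 (Gad2) to 0.77 (Sst), and 1.03% of all genes passed with edgeR and 582 of 11949 with DESeq2. In the polysome it was -0.15 (Sst) to 0.19 (Lhx6), and 0% of all genes passed with edgeR and 3 genes with DESeq2, while 1444 had an edgeR p under 0.05 before adjustment. The groups of all 9 genes overlapped in all 3 fractions.

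Within T532M cHet, pool 1 stood high. Dlx1 in input was at 164, 90.4 and 66.2 CPM in T532M cHet against 118, 84.1 and 113 CPM in T532M controls. Gad2 was at 47.6, 18.6 and 13.3 CPM against 19.1, 20.7 and 24.8 CPM, and Erbb4 at 3.96, 1.86 and 2.04 CPM against 1.88, 2.01 and 1.97 CPM. In each of these genes pool 1 of the cHet exceeded every control and at least 1 other cHet pool was below every control. Without this pool, the log2 fold change of Erbb4 was -0.01 in place of 0.40.

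The effect of each genotype was also compared between fractions, in fits with no term for the pool. The pairing of fractions within a pool was therefore not used in these tests. None of the 9 genes passed for polysome over monosome or over input in either cross, by edgeR or DESeq2, and none had an unadjusted p under 0.05. In the LoF cross the differences of effect for polysome over monosome lay between -0.23 and 0.26 (0% of all genes passed with edgeR and 0 with DESeq2, while 561 had an edgeR p under 0.05 before adjustment). In the T532M cross they lay between 0.04 and 0.47 for 8 genes and at -0.91 ± 0.621 for Sst (adjusted p = 0.847; 0.0603% of all genes passed). For T532M polysome over input they lay between -0.29 and 0.28 (0% of all genes, with 1113 at an unadjusted p under 0.05 and 0 by DESeq2).

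The difference between the genotype effects of the crosses was tested across all 36 libraries. Only the LoF effect takes in the presence of Cre, so allele, Cre and cross cannot be told apart in this difference. In input it was -1.56 ± 0.507 for Erbb4 (LoF effect minus T532M effect; unadjusted p = 0.00436, edgeR adjusted p = 0.101), the only one of the 9 genes with an unadjusted p under 0.05, and 0.0105% of 19121 genes passed. The adjusted p was 0.034 with DESeq2, which called 750 of 11380 genes, and 0.00139 without the filter on low counts, where 1163 of 33391 genes were called, and 0.5 without LoF control pool 1. None of the 9 genes passed in the monosome or the polysome, where 0% of all genes passed with edgeR and 47 and 4 genes with DESeq2, while 1279 and 1068 had an edgeR p under 0.05 before adjustment.

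The controls of the crosses differ by Cre, by the lox allele and by cross, which cannot be told apart. Emx1-Cre controls of the T532M cross were lower than the lox controls of the LoF cross in 9 of 9 genes by sign in input (median -0.22 beside -0.01 over all genes) and none passed, against 0.0261% of all genes. Erbb4 in input was at 1.95 ± 0.0646 CPM in Emx1-Cre controls and 3.26 ± 1.06 CPM in lox controls (SD, n = 3 each), without overlap, which was so in this direction for 6.86% of genes. The log2 fold change was -0.74 ± 0.35 (edgeR adjusted p = 0.685). In the monosome 9 of 9 genes were lower by sign in Emx1-Cre controls (-0.35 to -0.08, 0.0366% of all genes passed) and in the polysome 7 of 9 (lowest Lhx6 at -0.47, 0.0105% passed), and none of the 9 passed by edgeR or DESeq2. Some lists of other cell types, and the list of other interneuron and GABA genes, were also lower in the input of Emx1-Cre controls without overlap. Their part in these values was not tested. The summed level was 934 to 1492 CPM in Emx1-Cre controls against 1829 to 2478 CPM in lox controls for erythroid genes, 12.6 to 115 against 162 to 235 CPM for meningeal genes, 17.97 to 18.8 against 37.03 to 223 CPM for choroid plexus and hem genes, and 102 to 145 against 156 to 208 CPM for endothelial and pericyte genes. For other interneuron and GABA genes it was 651 to 671 against 710 to 778 CPM, and for microglial genes 35.1 to 43.3 against 43.8 to 47.6 CPM. The lox controls are also the controls of LoF cHet, so these values and those of LoF cHet share libraries.

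Much of the spread within groups was shared by the 9 genes. As deviations from the group mean on a log2(CPM + 1) scale, T532M cHet pool 1 was high in 9 of 9 genes in the polysome, the monosome and input (mean deviation 0.57, 0.53 and 0.59). LoF cHet pool 1 was high in 9, 8 and 9 of 9 genes (0.34, 0.24 and 0.34), and LoF control pool 2 in 8 of 9 in each fraction (0.30, 0.23 and 0.28). T532M cHet pool 3 was low in 9 of 9 genes in each fraction, with 0 above the group mean (-0.40, -0.37 and -0.38).

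**Figure D4:**
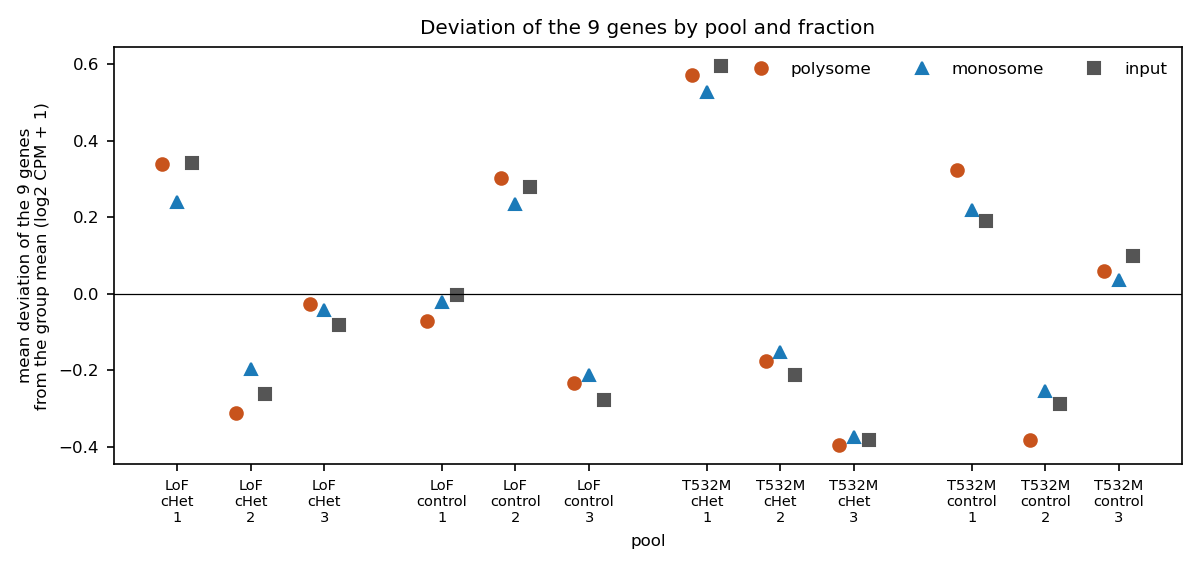
Mean deviation of the 9 genes from the mean of their group, on the log2(CPM + 1) scale, for each of 12 pools and for its polysome, monosome and input libraries. The 3 libraries of a pool lie close together, from T532M cHet pool 1 at 0.53 to 0.59 down to T532M cHet pool 3 at -0.40 to -0.37.

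Over the 12 input libraries, all 36 pairs of genes were positively correlated after the group means were subtracted, with a median r of 0.80. In the polysome all 36 were positive with a median of 0.82, and in the monosome 29 of 36 with a median of 0.81. The negative pairs in the monosome were all pairs with Sst, whose median r with the other genes was -0.28 there. The levels of a pair share library, depth and scaling, so these values are a description. Dlx2 and Dlx5 had the highest median r with the other genes in input, at 0.89 each, and Erbb4 the lowest, at 0.37. Between fractions of the same pools, Dlx5 had an r of 0.94 between polysome and input and 0.98 between monosome and input, and Erbb4 had 0.98 between polysome and monosome but 0.41 between polysome and input.

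Ventral markers outside the 9 genes differed between the same pools. Nkx2-1, which defines the medial eminence and preoptic area, was highest in the input of LoF control pool 2 (13.6 CPM), T532M cHet pool 1 (8.77 CPM), LoF control pool 3 (3.83 CPM) and T532M cHet pool 2 (1.93 CPM), and at 0 to 0.66 CPM in the other 8 pools. Lhx8, a factor of ventral cholinergic and striatal neurons, was at 3.40 CPM in LoF control pool 2 and 2.19 CPM in T532M cHet pool 1. Isl1, a striatal factor, was at 16.9 CPM in T532M cHet pool 1 and 15.2 CPM in LoF control pool 2, against 4.13 to 10.8 CPM in the other 10 pools. The part of ventral tissue in these pools was not tested. LoF cHet pool 1, in which the 9 genes were also high, had Nkx2-1 at 0.66 CPM and Isl1 at 10.8 CPM.

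The genes most like the mean of the 9 over the 12 input libraries, among 11987 genes of at least 2 CPM, were Tpgs2 and Spcs1 (r = 0.98 and 0.97), Dlx1as and Ndufs4 (0.97 each) and Pfn2 (0.97), beside a median of -0.03 over all candidates. Of the other interneuron and GABA genes, 17 of 22 had a positive r, with a median of 0.65, among them Dlx6 (0.96), Sp9 (0.95) and Npy (0.95), while Tiam2 (-0.64) and Sox6 (-0.60) were negative. All 6 other ventral progenitor genes measured were positive (median 0.76), as were 9 of 12 striatal genes (median 0.77), against 2 of 14 genes of the Emx1 lineage (median -0.47). Genes of other cells had a positive r too, in 5 of 5 choroid plexus and hem genes (median 0.49), 8 of 8 erythroid genes (0.43), 6 of 7 microglial genes (0.40) and 6 of 8 Cajal-Retzius genes (0.30), 3 of 7 meningeal genes (-0.10) and 3 of 8 endothelial and pericyte genes (-0.11).

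The spread of Sst between pools was wide in the monosome. Its log2 ratio of polysome to input lay between -2.81 and -2.09 in all 12 pools, with an SD of 0.18, beside a median SD of 0.21 over 11054 genes. Sst was low in the polysome (1.342 to 4.75 CPM), where the 1 CPM added before the log narrows the spread of its ratio. Its log2 ratio of monosome to input ran from -3.11 to -0.25, with an SD of 0.929, which exceeded that of 99.97% of 11618 genes (median 0.192). Between input and monosome its r over pools was -0.37, and between input and polysome 0.95.

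In the monosome Sst was at 3.60, 12.5 and 14.7 CPM in LoF cHet against 11.7, 4.81 and 6.13 CPM in LoF controls, and at 13.8, 10.4 and 6.05 CPM in T532M cHet against 6.69, 7.56 and 3.46 CPM in T532M controls. The groups overlapped in both crosses, and the log2 fold changes of 0.44 ± 0.474 in LoF cHet and 0.77 ± 0.411 in T532M cHet did not pass (edgeR adjusted p = 1 and 0.488). The log2 ratio of monosome to input spread widely over the pools. It was -3.11 in LoF cHet pool 1, -2.47 in LoF control pool 2, -2.25 in T532M control pool 3 and -1.87 in T532M control pool 1, and between -1.26 and -0.25 in the other 8 pools. The same 4 pools had the lowest median ratio over 1381 genes with coding sequences under 600 nt, at -0.60 to -0.32 against -0.18 to -0.02 in the others. Both values share the monosome and input libraries of the pool. The 4 pools were set apart by their Sst ratio, and among the other 8 pools r between Sst and this median was 0.07.

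**Figure D5:**
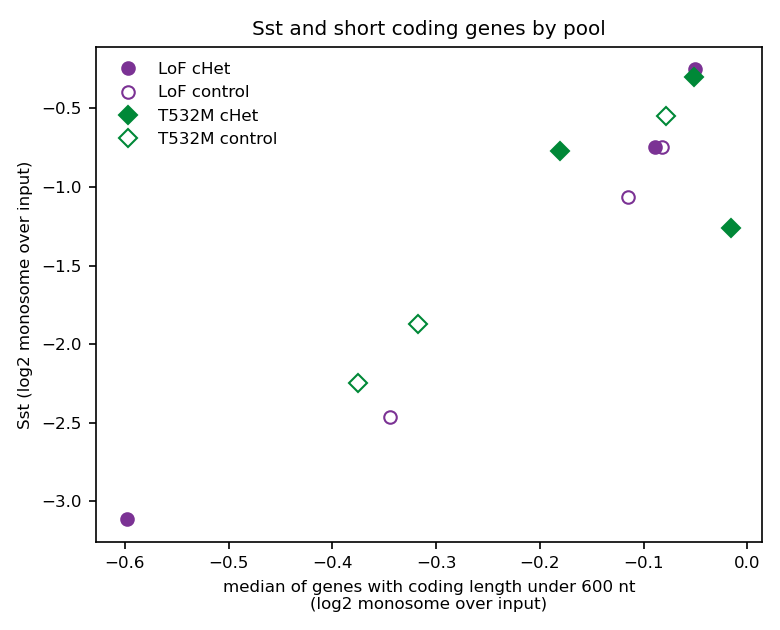
Log2 ratio of monosome to input for Sst against the median of this ratio over 1381 genes with coding sequences under 600 nt, for each of 12 pools (filled for cHet, open for control). In 4 pools of 3 groups both values are low, with Sst at -3.11 to -1.87, and in the other 8 Sst is at -1.26 to -0.25.

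Other genes of the same cells were read from lists chosen with earlier results of these data known. Of 25 other interneuron and GABA genes, 0 passed in any genotype comparison within a fraction. In LoF cHet 22 of 25 were lower by sign in input (median -0.24), 20 in the monosome and 21 in the polysome, beside medians of -0.01, 0.01 and 0.01 over all genes. The 2 with the smallest p in LoF input were Dlx6os1, a noncoding RNA of the Dlx5 and Dlx6 locus (39.9 ± 5.69 CPM in LoF cHet and 62.6 ± 10.8 CPM in LoF controls, SD, n = 3 each, edgeR adjusted p = 0.274), and Prox1, a factor of interneurons from the caudal eminence (3.79 ± 0.737 and 6.92 ± 1.29 CPM, adjusted p = 0.402). In T532M cHet 17 were higher by sign in input, and 12 in the monosome and in the polysome.

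Of the other ventral progenitor genes, 8 of 11 were lower by sign in LoF input, 10 in the monosome and 9 in the polysome, and in T532M cHet 7, 6 and 7 of 9 were higher. Nkx2-1 was among the 2 with the smallest p in both crosses, with a log2 fold change of -4.06 in LoF input (adjusted p = 0.271) and 3.92 in T532M input (adjusted p = 0.356), and its groups overlapped. Otx2, a factor of the ventral midline and choroid plexus, was at 1.30 ± 0.602 CPM in LoF cHet and 3.39 ± 1.22 CPM in LoF controls (SD, n = 3 each; edgeR adjusted p = 0.266). Of 14 striatal genes, 11 were lower by sign in LoF input, 8 in the monosome and 9 in the polysome. Their summed level was 393 to 482 CPM in LoF cHet against 474 to 519 CPM in LoF controls in input, 577 to 636 against 568 to 618 CPM in the monosome and 796 to 873 against 744 to 848 CPM in the polysome. Choroid plexus and hem genes were lower in LoF input in 12 of 12 (median -1.003) and higher in T532M input in 12 of 12 (median 2.68), a list that holds Ttr.

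Between fractions the other interneuron genes also went both ways. In polysome against input of LoF controls 9 of 25 passed higher and 7 lower, and in T532M controls 10 and 6. Of all genes tested, 36.5% passed higher and 42.8% lower in LoF controls, and 36.6% and 42.4% in T532M controls. Prox1 rose by 3.22 in LoF controls and 3.62 in T532M controls on the log2 scale, and the neuropeptide gene Npy fell by 3.11 and 3.17. Tiam2, an exchange factor for Rac, rose by 2.20 and 2.32, and the transcription factor gene Sox6 by 2.15 and 2.25. In input Tiam2 and Sox6 had a negative r to the mean of the 9 genes (-0.64 and -0.60), and which cells gave their ratios was not tested. Npy, like Sst, encodes a short neuropeptide precursor, and both were lower in the polysome. Of the ventral progenitor genes, none passed higher, and 5 of 11 in LoF controls and 6 of 9 in T532M controls passed lower, led by Hes5, a Notch target (-2.08 and -2.45). The r of Hes5 to the mean of the 9 genes in input was 0.02.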

How the data were processed

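RNA of input, monosome and polysome fractions was sequenced from pooled cortices, and the authors deposited 1 table of raw counts per gene. Per the submitters' processing notes, the tools were DESeq2 1.34.0, Subread 2.0.3, STAR 2.7.11a and FastQC 0.11.7, listed with no role. Per the file headers, counts are read pairs over whole genes, introns included, assigned by strand with featureCounts on a GENCODE M25 annotation of GRCm38. The authors also deposited tables of log2 fold changes and p-values for each cross, used here only where named. The sources used here do not say which gradient fractions made up the monosome and the polysome.

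Counts were tested as deposited with edgeR 4.0.16 (TMM scaling, filterByExpr, quasi-likelihood test, Benjamini-Hochberg over all genes, adjusted p under 0.05) in R 4.3.3, in 1 fit of the 18 libraries of each cross and in 1 fit of all 36 for comparisons between crosses. The tests were tested on simulated data with known changes. CPM are TMM-scaled over the 36 libraries, an SE is the log2 fold change divided by the square root of F, and ratios within a pool and deviations use log2(CPM + 1). Coding lengths are the longest coding sequence of a gene in the GENCODE M21 annotation of GRCm38, matched by gene ID, and promoter sequences are from RefSeq. Each fraction is scaled to its own library, so levels across fractions are relative to the rest of that fraction. TMM assumes that most genes do not differ, which comparisons between fractions do not meet.

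The members and lists were chosen with earlier results of these data known. Other genes are named by rule, as up to 4 of a list with the largest fold change among those that passed or up to 2 with the smallest p where none passed. Nkx2-1, Isl1, Lhx8, Emx1, Ttr, Ddx3x and Slc32a1 are named as markers, some chosen after their values were seen. Genes most like the members are the 5 with the highest r to their mean deviation in input. Nothing states that pools are separate litters, so p-values measure the spread between these pools. Deviations of cHet and control libraries of 1 number correlated above 0.1 in 2 of 9 LoF pairs and 6 of 9 T532M pairs, among them all 3 of the T532M monosome. Since not every pair did so in either cross, genotypes were compared without the block, and whether the T532M numbers pair samples is unsettled. Those of fractions of 1 genotype and number did so in 11 of 18 LoF and 17 of 18 T532M pairs, and the pool was used as a block in an alternative fit. Other alternatives were DESeq2 1.42.0, RLE scaling, no low-count filter, each fraction alone, and leaving out each pool.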

Additional observations from a re-analysis of the deposited data

How the results depend on the processing

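Directions and calls were compared where a value was at least 1 SE from 0, and for all 9 genes between fractions of controls. Calls gained by other values are outside these tallies. Of 204 alternative values for genotype within a fraction, 192 kept direction and call, 10 were newly called and 2 reversed. The 2 reversals are 1 fit, without T532M cHet pool 1, counted under 2 settings. This was the only T532M pool left out as a pool with most Ttr. Without it, the T532M input value of Erbb4 was -0.0122 (up to 0.592 without other single pools). Of 540 between fractions of controls, 492 kept both, 19 lost and 28 gained a call, and 1 reversed (Dlx2 in T532M polysome against monosome, -0.0418 without control pool 1, up to 0.247 without another). The cause was not tested. All 22 values of the genotype effect between fractions kept direction and call. They are only those of Erbb4 in LoF polysome over input and of Sst in T532M polysome over monosome. All 48 values of Emx1-Cre against lox controls kept both, as did 94 of 96 for LoF minus T532M effects. The count of the 9 genes called in LoF input was 3 without the low-count filter (967 of 31690 genes called) and 2 without the pools with most Ttr (62 of 18970). Without those pools it was 7 in the LoF monosome (940 genes), 2 in the LoF polysome (70) and 1 for the LoF effect in polysome over monosome. In polysome against monosome it was 7 without the filter and 7 with the pool as a replicate block in LoF controls, and 5 and 8 in T532M controls, with 2 to 5 and 1 to 5 without single pools. It was 5 to 8 in T532M polysome against input without single pools, and 1 for LoF minus T532M in input without the filter (1163 of 33391 genes) and 1 with DESeq2 (750 of 11380). With the number as a replicate block, 0 of the 9 were called in every genotype comparison within a fraction, while calls over all genes in the T532M cross were 21 in input, 349 in the monosome and 4 in the polysome, against 1, 188 and 0 without it. Over all genes, calls ran from 0 to 967 in LoF input, 1 to 940 in the LoF monosome, 0 to 70 in the LoF polysome, 0 to 543 in T532M input, 7 to 636 in the T532M monosome, 0 to 139 in the T532M polysome and 1 to 1697 for LoF minus T532M in input. Depth limits Erbb4 in input (48 to 241 read pairs) and Sst in the polysome (39 to 183).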

Other observations

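Slc32a1, the vesicular GABA transporter, was at 18.7, 9.80 and 10.8 CPM in the input of LoF cHet against 11.7, 21.3 and 13.3 CPM in LoF controls, and at 27.9, 15.1 and 13.8 CPM in the polysome against 24.8, 30.1 and 16.1 CPM. Its highest libraries of the LoF cross were those of LoF control pool 2 and LoF cHet pool 1.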
